A study of Mus musculus with 10 samples.

Results

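The genes described here carry a cell into S phase and copy its DNA. They were 44 genes, each found by its symbol in the array files, among 13125 genes and transcripts tested, and 37 of the 44 gave enough signal to be tested. Expression was measured in C2C12 cells, an established line of mouse muscle precursors that divides in rich medium and can fuse into myotubes. Of the samples, 6 had received a mimic of miR-27a-3p, a synthetic RNA (mirVana) that acts as the mature microRNA, and 4 a scrambled control sequence. Both groups were grown in high-glucose medium with fetal bovine serum, received 150 nM of RNA with a lipid reagent and were collected after 72 h, with transfection efficiency put at 60%, so untransfected cells are part of every sample. No untransfected culture was analysed here, and every difference is mimic minus scrambled sequence.

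DNA replication starts at origins, where the origin recognition complex with Cdc6 and Cdt1 loads the MCM2-7 helicase. On entry into S phase, cyclin E with Cdk2 and the E2F transcription factors drive the expression and activation of the machinery, Cdc45 and the GINS complex switch the helicase on, and polymerases alpha, delta and epsilon copy the strands behind it. Myoblasts leave the cell cycle when they differentiate, and the expression of replication genes is known to fall as they do so.

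The sequence supplied by the mimic is shown first, with the seed, bases 2 to 8 from its 5′ end, in capitals. It is the RefSeq mature form on GRCm38.p6 at chr8:84208727-84208747 on the plus strand, beside its paralog miR-27b-3p at chr13:63300760-63300780, which has the same seed.
mmu-miR-27a-3p: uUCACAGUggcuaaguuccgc
mmu-miR-27b-3p: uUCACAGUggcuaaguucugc

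Promoters of replication genes are known for binding sites of E2F factors. The RefSeq promoter table of GRCm38.p6, with 250 bases before to 50 after each start, held 36 of the 44 genes. It was searched on both strands for the E2F words TTTCCCGC, TTTCGCGC, TTTGCCGC and TTTGGCGC, which may overlap each other. A word was found for 15 of the 36 genes (41.7%), against 704 of all 27025 genes in the table (2.6%) and 385 of the 8055 tested genes in it (4.78%). The CCAAT box (CCAAT) was found for 23 of the 36 (63.9%; 41.1% of all genes) and the GC box (GGGCGG) for 27 (75%; 38.2% of all genes and 69.3% of tested genes). The runs below show some genes described further on, 5′ to 3′ on the strand of the gene, with E2F words in capitals. The runs of Pola1 (chrX:93632156-93632405, minus strand) and Tk1 (chr11:117826015-117826264, minus) cover the 250 bases before the start, and that of Tk1 has no such word.
Pola1: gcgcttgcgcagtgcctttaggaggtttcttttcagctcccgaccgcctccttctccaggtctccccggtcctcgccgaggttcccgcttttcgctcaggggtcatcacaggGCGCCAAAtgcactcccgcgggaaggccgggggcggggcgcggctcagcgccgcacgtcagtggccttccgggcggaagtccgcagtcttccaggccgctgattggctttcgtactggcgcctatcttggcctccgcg
Tk1: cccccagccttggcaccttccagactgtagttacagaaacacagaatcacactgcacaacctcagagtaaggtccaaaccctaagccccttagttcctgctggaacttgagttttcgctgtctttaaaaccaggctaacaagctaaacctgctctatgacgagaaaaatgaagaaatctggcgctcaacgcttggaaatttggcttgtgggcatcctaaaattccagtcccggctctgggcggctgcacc
The 3 words of Mcm6 (chr1:128359706-128359855, minus) include an overlapping pair, and so do the 2 words of Mcm5 (chr8:75109316-75109407, plus). Cdk2 (chr10:128705144-128705231, minus) has 1 word.
Mcm6: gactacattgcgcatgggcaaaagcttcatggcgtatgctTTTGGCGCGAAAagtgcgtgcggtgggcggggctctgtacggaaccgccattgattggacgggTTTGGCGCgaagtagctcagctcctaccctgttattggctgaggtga
Mcm5: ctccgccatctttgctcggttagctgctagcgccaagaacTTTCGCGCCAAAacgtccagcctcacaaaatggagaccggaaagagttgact
Cdk2: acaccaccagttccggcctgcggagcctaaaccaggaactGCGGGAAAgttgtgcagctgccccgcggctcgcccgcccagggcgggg
In Pold1 (chr7:44548766-44548786, minus), Mcm3 (chr1:20820266-20820294, minus) and E2f2 (chr4:136172303-136172323, plus) the words lie within the 50 bases after the start.
Pold1: gtatcttgtgGCGGGAAAagc
Mcm3: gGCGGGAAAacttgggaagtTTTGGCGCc
E2f2: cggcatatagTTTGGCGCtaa

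The 10 files held 2 scans of each of 5 array positions on 1 slide, although the labels call all samples independently repeated transfections. Both scans of a position were averaged, so that 3 arrays stand for the mimic and 2 for the scrambled sequence, and the p-values reflect how far these 5 arrays scatter, which can be technical in part. Between 27% and 35.3% of the 59305 non-control spots of a file exceeded background clearly, and the median signal of those spots was 428 to 783. The scrambled arrays stood further apart from each other (SD of log2 differences 0.566) than any pair of mimic arrays did (0.324 to 0.444). Levels below are log2 processed signals scaled to the upper quartile (75th percentile) of detected probes in each file. They can be compared between arrays for 1 gene but not between genes. A gene is said to have risen or fallen where limma with Benjamini-Hochberg adjustment over all 13125 tested gave an adjusted p under 0.05.

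Of the 37 replication genes tested, 4 rose after the mimic and none fell. Those that rose were Pola1, Pole and Pold1, the catalytic subunits of the 3 replicative polymerases, and Tk1, the thymidine kinase of S phase. Over all 13125 tested, 364 (2.77%) rose and 308 (2.35%) fell. At an unadjusted limma p under 0.05, 9 replication genes were higher and 2 lower, beside 11.2% higher and 14.1% lower of all tested. The differences of the 37 genes ran from -1.0 (E2f2) to 1.19 (Pola1), with a median of 0.21 against -0.05 over all tested, and 26 were positive and 11 negative, against 5945 positive of all 13125. With every probe, detected or not, used for the percentile, the medians moved to 0.37 and 0.11, and 32 of the 37 were positive. All 3 mimic arrays lay above both scrambled arrays for 20 of the 37, which 19.8% of all tested did, and below both for 3, which 25.7% of all tested did. The other 14 overlapped. These are counts over the genes that passed the signal filter, and the filter asked for detection in 4 or more of the 10 files, of either group. Their mean level was -1.60, -1.64 and -1.66 on mimic arrays 1 to 3, -1.78 on scrambled array 1 and -1.93 on scrambled array 2. Scrambled array 2 was thus the lowest of the 5 for these genes. It lay under scrambled array 1 for 26 of the 37, beside 6123 of all 13125 tested. With scrambled array 2 left out, the median difference was 0.14, and with scrambled array 1 left out it was 0.27.

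**Figure D1:**
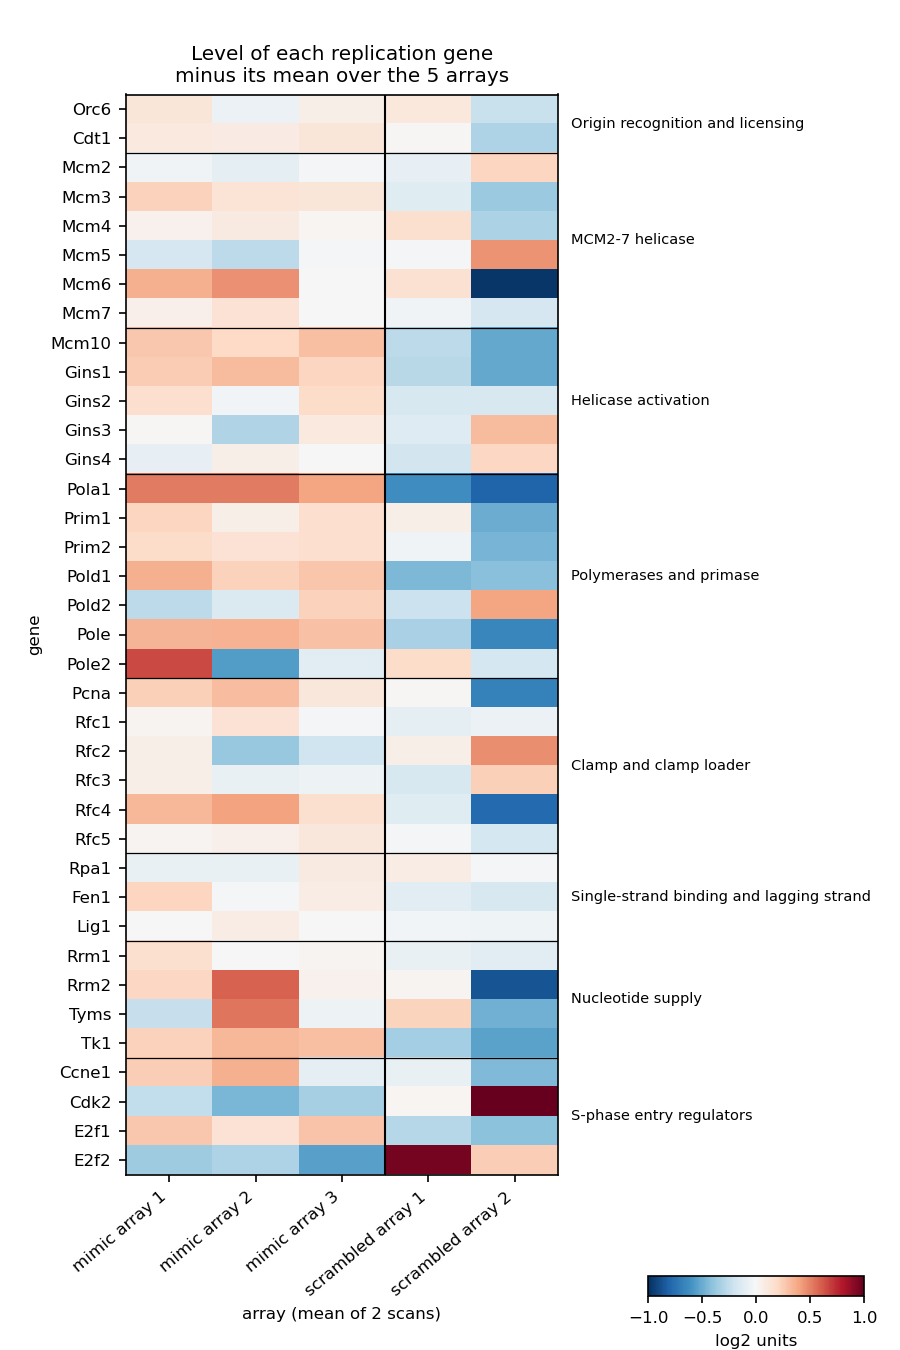
Level of each of the 37 tested replication genes (rows, grouped by role) on each of the 5 arrays (columns), as log2 units above (red) or below (blue) the mean of the gene over the arrays; the colour scale ends at 1 in either direction. Pola1, Pold1, Pole and Tk1 are red on all 3 mimic arrays and blue on both scrambled arrays, and E2f2 has the reverse pattern. Mcm6 and Rrm2 are dark blue on scrambled array 2 only.

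The remaining 7 genes were too dim to test. Orc1, Cdc6, Cdc45 and Ccne2 were well above background in no file, Orc2 in 1 mimic and 1 scrambled file, Pola2 in 1 scrambled file and Rpa2 in 1 mimic file. No fold is given for them, because neither group had a measured level. Most of the origin recognition and licensing group was thus below what these arrays measured.

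Markers of the state of the cells moved with the same contrast. Of 12 genes of differentiating myocytes, 9 fell, beside 2.35% of all tested, and none rose. Their median difference was -1.54. Their summed level was 15.9 to 18.6 after the mimic and 45.7 to 49.1 after the scrambled sequence (in units of the 75th percentile signal). All mimic arrays were lower for 11 of the 12, beside 25.7% of all tested, and higher for Myl4 (0.31 ± 0.15, adjusted p = 0.254). Myog, the transcription factor that commits myoblasts to differentiate, had a difference of -2.10 ± 0.21 (SE, adjusted p = 0.0093). Of 7 myoblast genes, 6 were tested and none was called, with Myf5 under the filter. The list had a summed level of 22.8 to 24.5 after the mimic and 28.8 to 35.7 after the scrambled sequence. All mimic arrays were lower for 5 of the 6, and the groups overlapped for Ncam1 (0.57 ± 0.25). Of 8 genes of G2 and mitosis, 7 were tested and 4 rose, beside 2.77% of all 13125 tested. Their median difference was 0.79, and the list had a summed level of 4.47 to 4.68 against 2.56 to 2.87. Among markers of other lineages, Pax7 (satellite cell), Thy1 (fibroblast), Pecam1, Cdh5 and Tie1 (endothelium), Ptprc and Adgre1 (blood) and Krt5, Krt14 and Krt1 (keratinocyte) were above background in no file. Of 3 satellite cell genes 2 were tested: Cd34 rose (1.56 ± 0.18, adjusted p = 0.012), while Sdc4 had a difference of -0.84 ± 0.20 (adjusted p = 0.071). The list had a summed level of 1.96 to 2.74 after the mimic and 0.851 to 0.866 after the scrambled sequence. Of 5 fibroblast genes 4 were tested and Pdgfra passed as lower (adjusted p = 0.031), but it was above background in 1 of 6 mimic files and 3 of 4 scrambled files. The fibroblast list had summed levels of 10.9 to 12.1 and 6.89 to 9.92. By contrast, Kdr (endothelium) and Cd68 (blood) were above background in all 10 files, and Cd3e (blood) in 5 mimic and 3 scrambled files. Cd68 had all mimic arrays higher (0.53 ± 0.14, adjusted p = 0.095). The groups overlapped for Kdr (0.19 ± 0.17) and Cd3e (-0.26 ± 0.18). The endothelial and blood lists had summed levels of at most 0.246 and 0.168, with no gene called. A summed level is set mostly by the brightest probes of its list and cannot be compared between lists. In bulk RNA, fewer cells of a kind and less RNA per cell cannot be told apart. The part of the differentiation state of the cultures in the differences of the replication genes was not tested.

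Among the genes that recognise and license origins, Cdt1, which brings the helicase to the origin, had levels of -0.98, -1.0 and -0.96 after the mimic and -1.07 and -1.39 after the scrambled sequence. All mimic arrays were above both scrambled arrays, by a mean of 0.25 ± 0.15 (SE, adjusted p = 0.340). Orc6, a subunit of the origin recognition complex, was at -1.12, -1.30 and -1.18 after the mimic and at -1.13 and -1.46 after the scrambled sequence, so the groups overlapped (0.09 ± 0.16, adjusted p = 0.747). Neither gene passed the test.

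The 6 subunits of the MCM2-7 helicase, which unwinds the DNA ahead of the fork, were all tested and none was called. Their differences ran from -0.36 to 0.68 with a median of 0.15, 4 positive and 2 negative. Mcm6 had the largest, 0.68 ± 0.35 (adjusted p = 0.275), from levels of 2.02, 2.12 and 1.67 after the mimic and of 1.82 and 0.69 after the scrambled sequence. That difference came from scrambled array 2: the mimic mean was 0.11 above scrambled array 1 and 1.24 above scrambled array 2. Mcm3 was more even, at -0.04, -0.13 and -0.15 against -0.39 and -0.64, a difference of 0.41 ± 0.15 (adjusted p = 0.163), and its second probe gave 0.38 ± 0.18. Mcm5 had the opposite sign, at -2.39, -2.48 and -2.23 after the mimic and -2.23 and -1.77 after the scrambled sequence (-0.36 ± 0.19, adjusted p = 0.279). Its groups overlapped, and the difference was -0.13 against scrambled array 1 and -0.59 against scrambled array 2. Of the other subunits, Mcm7 had all mimic arrays above both scrambled arrays (0.17), whereas Mcm2 (-0.12) and Mcm4 (0.13) overlapped and changed sign without scrambled array 2 (0.04 and -0.11). The differences of the subunits of this 1 complex thus had both signs.

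For the factors that switch the helicase on, Mcm10 and Gins1 had near-equal differences that missed the threshold. Mcm10, which acts when the loaded helicase starts to unwind, was at -3.14, -3.21 and -3.11 after the mimic and at -3.67 and -3.92 after the scrambled sequence (0.65 ± 0.15, adjusted p = 0.065). Gins1, a subunit of the GINS complex, was at -3.25, -3.19 and -3.29 against -3.78 and -4.02 (0.65 ± 0.15, adjusted p = 0.064). In both genes the mimic arrays lay close together and above both scrambled arrays. Gins2 had the same order of groups with a smaller difference (0.27 ± 0.14), and it was above background in 4 of 6 mimic files and 1 of 4 scrambled files. The groups overlapped for Gins3, at -1.04, -1.35 and -0.95 against -1.18 and -0.73 (-0.16 ± 0.21, adjusted p = 0.646), and for Gins4 (-0.02 ± 0.17).

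The polymerases held 3 of the 4 genes that rose. Pola1 encodes the catalytic subunit of polymerase alpha, which extends the RNA primer, and its probe lies at chrX:90550189-90550248 on mm9. It was at -2.38, -2.38 and -2.50 after the mimic and at -3.52 and -3.70 after the scrambled sequence, with no overlap. The difference of 1.19 ± 0.14 (95% interval 0.84 to 1.53, adjusted p = 0.013) is a 2.28-fold higher level. Pole, the catalytic subunit of the leading-strand polymerase epsilon, was measured at chr5:110766375-110766434. Its levels were -2.45, -2.44 and -2.49 after the mimic and -3.11 and -3.44 after the scrambled sequence, a 1.76-fold rise (0.82 ± 0.16, interval 0.44 to 1.20, adjusted p = 0.044). Pold1, the catalytic subunit of polymerase delta, which makes the lagging strand, has its probe at chr7:51788221-51788589. It was at -2.08, -2.20 and -2.16 against -2.88 and -2.85, a 1.65-fold rise (0.72 ± 0.13, interval 0.40 to 1.05, adjusted p = 0.040). In all 3 genes the mimic arrays were higher than both scrambled arrays by more than the spread within either group.

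Of the accessory subunits of the polymerases, Pold2 and Pole2 did not pass the test, and Pola2 of polymerase alpha was too dim to test. Pold2, the small subunit of polymerase delta, was at -3.74, -3.63 and -3.25 after the mimic and -3.70 and -3.09 after the scrambled sequence, with overlapping groups (-0.14 ± 0.25, adjusted p = 0.737). Pole2, the accessory subunit of polymerase epsilon, ran from -4.86 to -3.64 over the mimic arrays and was at -4.12 and -4.48 on the scrambled arrays, with a 95% interval of -0.90 to 0.89. It was above background in 3 of 6 mimic files and 3 of 4 scrambled files, so an equal or a larger difference than that of Pole lies within its interval. The primase subunits that make the RNA primer had differences of 0.37 ± 0.20 (Prim1, adjusted p = 0.298) and 0.42 ± 0.17 (Prim2, adjusted p = 0.201). For Prim1 the groups overlapped, and the mimic mean was 0.09 above scrambled array 1 and 0.64 above scrambled array 2. For Prim2 all mimic arrays were higher, and the mimic mean was 0.2 above scrambled array 1 and 0.63 above scrambled array 2.

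The clamp Pcna, a ring that holds the polymerases on DNA, was at 1.48, 1.55 and 1.35 after the mimic and at 1.25 and 0.56 after the scrambled sequence (0.55 ± 0.23, adjusted p = 0.203). All mimic arrays were higher, but most of the difference came from scrambled array 2. The clamp loader, which opens the ring, gave both signs. Rfc4 was at -0.21, -0.14 and -0.38 against -0.66 and -1.32 (0.75 ± 0.23, adjusted p = 0.120), but its second probe, also above background in all 10 files, gave 0.01 ± 0.17. Rfc2 was at -2.37, -2.81 and -2.63 against -2.37 and -1.96 (-0.44 ± 0.20, adjusted p = 0.239), and by unrounded values all mimic arrays were lower. Rfc1 (0.13), Rfc5 (0.16) and Rfc3 (-0.06) lay nearer to 0. None of the 6 passed the test.

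Genes of the lagging strand and of single-strand binding had small differences. Fen1, the nuclease that trims Okazaki fragments, was at -1.37, -1.61 and -1.51 after the mimic and -1.70 and -1.75 after the scrambled sequence (0.23 ± 0.14, adjusted p = 0.351). Lig1, the ligase that seals the fragments, had a difference of 0.06 ± 0.13 with an interval of -0.26 to 0.37, which leaves out the size seen for the polymerase catalytic subunits. Rpa1, the large subunit of the single-strand binding protein, was at -0.01, -0.01 and 0.16 against 0.14 and 0.06 (-0.05 ± 0.14, adjusted p = 0.831), while its second probe gave -0.52 ± 0.19. The groups overlapped for Rpa1 only.

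All 4 genes of nucleotide supply had positive differences, and Tk1 rose. Tk1, which salvages thymidine during S phase, was measured at chr11:117676845-117676904. It was at -0.51, -0.41 and -0.44 after the mimic and -1.08 and -1.28 after the scrambled sequence, a 1.66-fold rise with no overlap (0.73 ± 0.14, interval 0.38 to 1.07, adjusted p = 0.045). A dimmer second Tk1 probe, above background in 6 files, gave 0.15 ± 0.36, and with every probe tested for itself the adjusted p of the main probe was 0.051. Rrm2, the regulated subunit of ribonucleotide reductase, was at 1.64, 2.02 and 1.48 against 1.46 and 0.57 (0.70 ± 0.31, adjusted p = 0.222). As for Mcm6 and Pcna, scrambled array 2 was the low one. Its partner subunit Rrm1 was at -1.59, -1.75 and -1.73 against -1.83 and -1.87, a smaller difference without overlap (0.16 ± 0.14, adjusted p = 0.495). The groups overlapped for Tyms, which makes thymidylate (0.21 ± 0.31).

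The regulators of S-phase entry split by sign. E2f1, an activator of replication genes, was at -2.45, -2.58 and -2.44 after the mimic and -3.01 and -3.13 after the scrambled sequence (0.58 ± 0.14, adjusted p = 0.072). E2f2, an activator of the same family, went the other way, at 0.03, 0.07 and -0.16 against 1.34 and 0.63. Its difference of -1.0 ± 0.24 (interval -1.58 to -0.42) was the lowest of the 37 genes and also missed the threshold (adjusted p = 0.072). Both genes had groups that did not overlap. Cdk2, the kinase that fires origins with cyclin E, was at -3.56, -3.77 and -3.64 after the mimic, -3.29 on scrambled array 1 and -2.29 on scrambled array 2 (-0.87 ± 0.30, adjusted p = 0.151). Most of that difference came from scrambled array 2. Ccne1, which encodes cyclin E1, had the sign of E2f1 but overlapped by 1 mimic array (-0.23, -0.12 and -0.57 against -0.55 and -0.92, difference 0.43 ± 0.20).

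**Figure D2:**
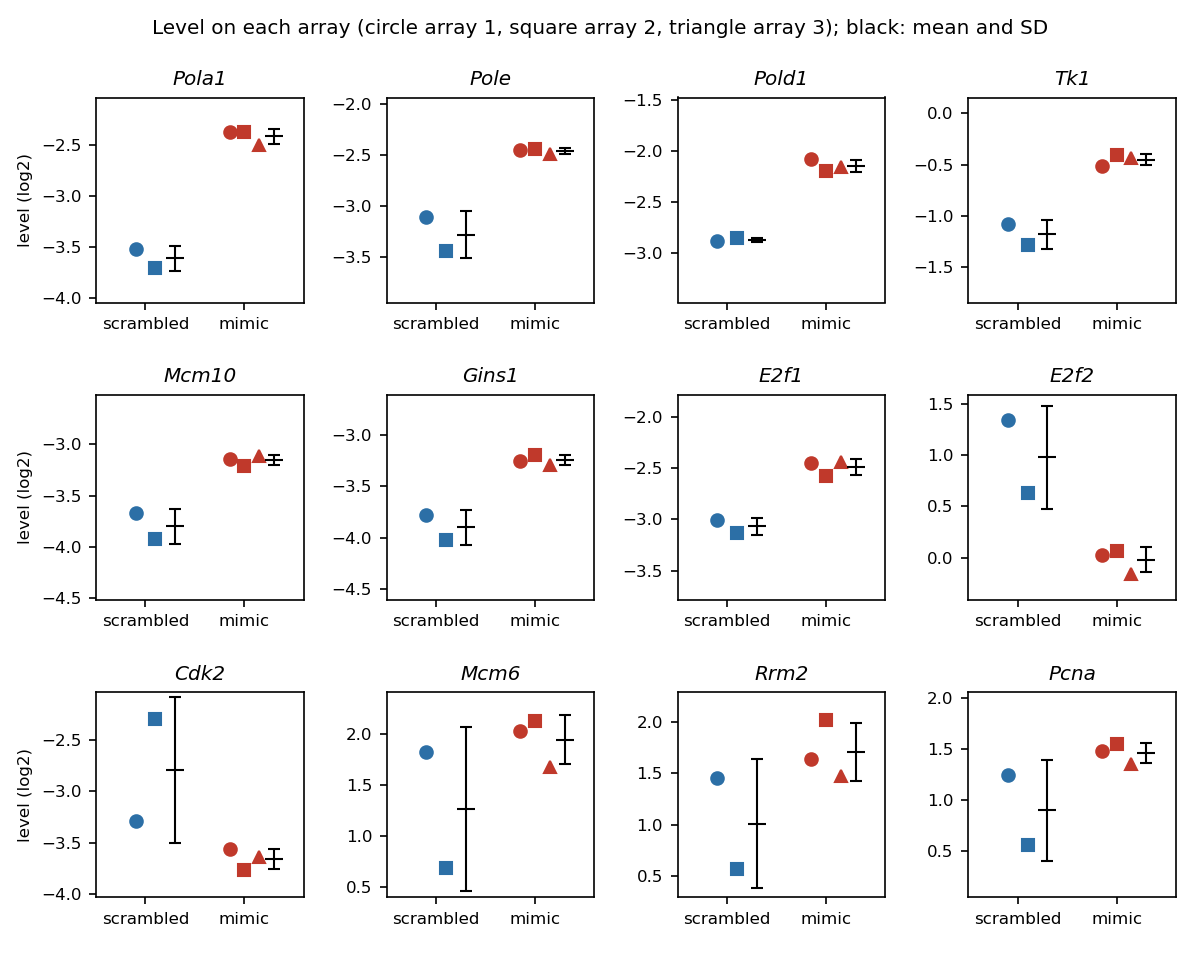
Levels of 12 replication genes on each array (log2, scaled as in the text), scrambled arrays in blue and mimic arrays in red, with the mean and SD of each group in black (n = 2 and n = 3); all panels span the same height. For Pola1, Pole, Pold1 and Tk1 the groups are far apart relative to their spread, whereas for Cdk2, Mcm6, Rrm2 and Pcna the scrambled arrays differ from each other.

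**Figure D3:**
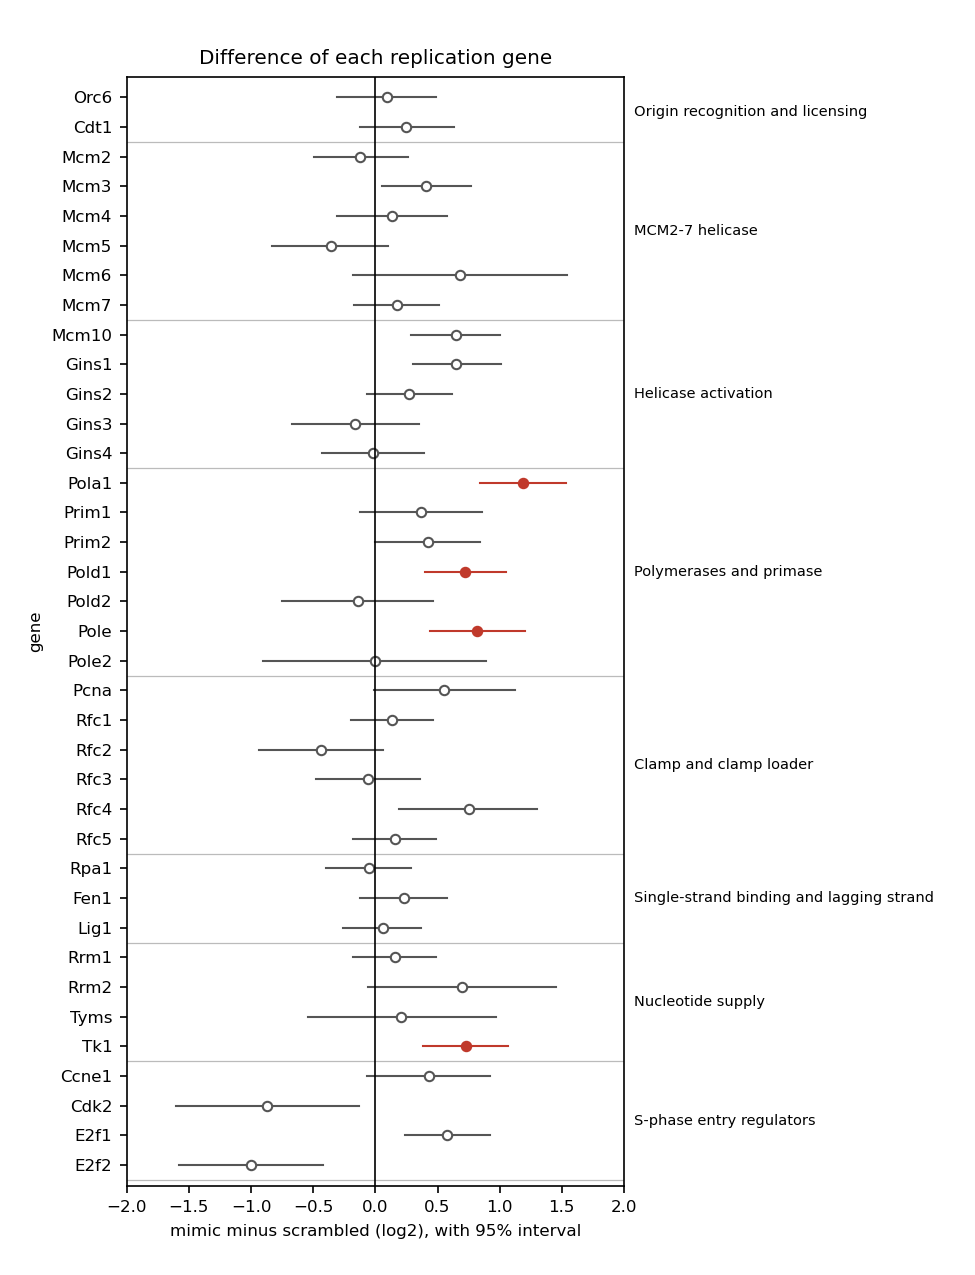
Mimic minus scrambled difference (log2) of each tested replication gene, by role, with its 95% interval from limma; filled red points are the 4 genes that rose. Polymerase catalytic subunits lie at 0.72 to 1.19, whereas E2f2 and Cdk2 lie below 0 at -1.0 and -0.87.

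The 4 calls depended on the arrays and the processing, and the differences themselves did not change sign. They stayed positive under all 18 alternatives run, between 0.83 and 1.35 for Pola1, 0.57 and 0.88 for Pold1, 0.51 and 0.98 for Pole and 0.44 and 0.89 for Tk1. With mimic array 1 left out, the adjusted p was 0.100 for Pola1, 0.227 for Pold1, 0.209 for Pole and 0.210 for Tk1. None passed either without mimic array 2 (0.081, 0.154, 0.167 and 0.176) or mimic array 3 (0.061, 0.155, 0.148 and 0.167). Without scrambled array 2, Pola1 passed (0.031), as did E2f2 as a gene that fell (0.030), whereas Pold1 (0.056), Pole (0.060) and Tk1 (0.069) did not. Without scrambled array 1 all 4 passed (0.013, 0.021, 0.014 and 0.016 in the same order), and 14 replication genes were called higher and 3 lower, in a fit that called 33.1% of all genes. With all 5 arrays, the first scan alone kept Pola1 (4.46% of all genes called), the second scan Pola1 and Pold1 (4.05%), normexp Pola1 and Tk1 (4.14%), and a fit with no filter on dim probes none (0.0493%). A fit to the 10 files that blocked on the scan and took array position as random called 11.2% of all genes; in it Mcm10 (0.024), Gins1 (0.029), Rfc4 (0.032) and E2f1 (0.033) also passed as higher and E2f2 (0.011) as lower. In these fits a group left with 1 array was assumed to vary like the other.

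**Figure D4:**
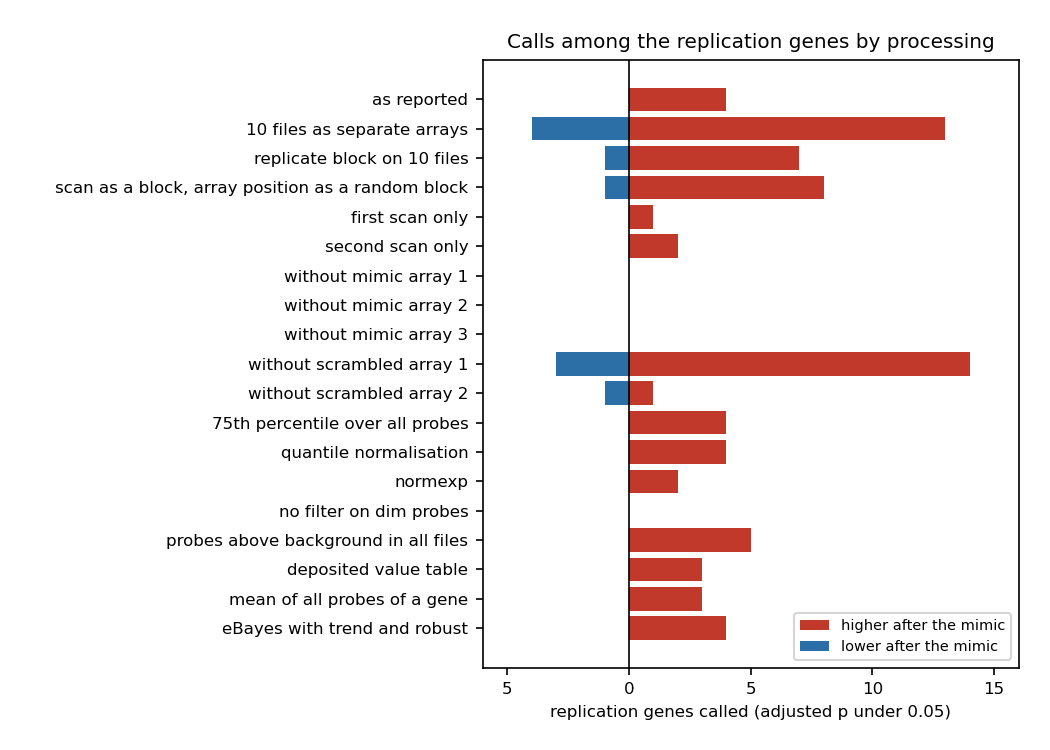
Number of replication genes called higher (red, right of 0) or lower (blue, left of 0) under the processing as reported and under each alternative. The count higher runs from 0 with any 1 mimic array left out, or without the filter on dim probes, to 14 without scrambled array 1, while the share of all genes called in the same fits runs from 0.0493% to 34.6%.

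Genes with and without an E2F word overlapped in their differences. The 13 tested genes with such a word in their promoter window had a median difference of 0.06 and ranged from -1.0 to 1.19, and 2 of them, Pola1 and Pold1, rose. The 17 tested genes without a word had a median of 0.23 and ranged from -0.14 to 0.75, and 1, Tk1, rose. Over all 13125 tested, 2.77% rose. Pole, which also rose, and Gins1, Gins2, Gins4, Mcm4, Prim2 and Rfc2 were tested but had no promoter to search. They are in neither group. The runs printed above thus belong to genes at both ends: Pola1, Pold1, Mcm6 and Mcm3 with positive differences, and Mcm5, Cdk2 and E2f2 with negative ones. A match is a description of letters in a window and not a bound site.

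A list of 60 other replication and S-phase genes had 43 tested. Of these, 1 rose and none fell, beside 2.77% and 2.35% of all 13125 tested. Chtf18, a subunit of an alternative clamp loader, was at -2.92, -3.04 and -2.92 after the mimic and -3.85 and -3.74 after the scrambled sequence (0.84 ± 0.14, adjusted p = 0.030). At an unadjusted limma p under 0.05, 7 were higher and 3 lower, beside the same 11.2% and 14.1% of all tested. The median difference was 0.14, with 28 positive and 15 negative, and the groups did not overlap for 16 higher and 6 lower, beside the 19.8% and 25.7% of all genes tested. The largest differences among the rest were uneven. Tfdp2, a partner of E2F factors, reached 1.96 ± 1.92 through mimic array 2 alone (2.02, against -3.96 and -4.48 on the other mimic arrays). Donson, a replication fork factor, reached 1.86 ± 0.87 through scrambled array 2 (-6.16, against -2.94 on scrambled array 1). E2f7, a repressor of the E2F family, had a steadier difference of 1.09 ± 0.25 (adjusted p = 0.069), and Gmnn, the inhibitor of Cdt1, one of 0.87 ± 0.25 (adjusted p = 0.107). Cdkn1a, the cyclin-dependent kinase inhibitor p21, was at 0.79, 0.89 and 0.92 after the mimic and 1.39 and 2.13 after the scrambled sequence (-0.89 ± 0.24, adjusted p = 0.092), lower on every mimic array. Chtf8, which acts with Chtf18, had the opposite sign to it (-0.80 ± 0.19, adjusted p = 0.076).

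**Figure D5:**
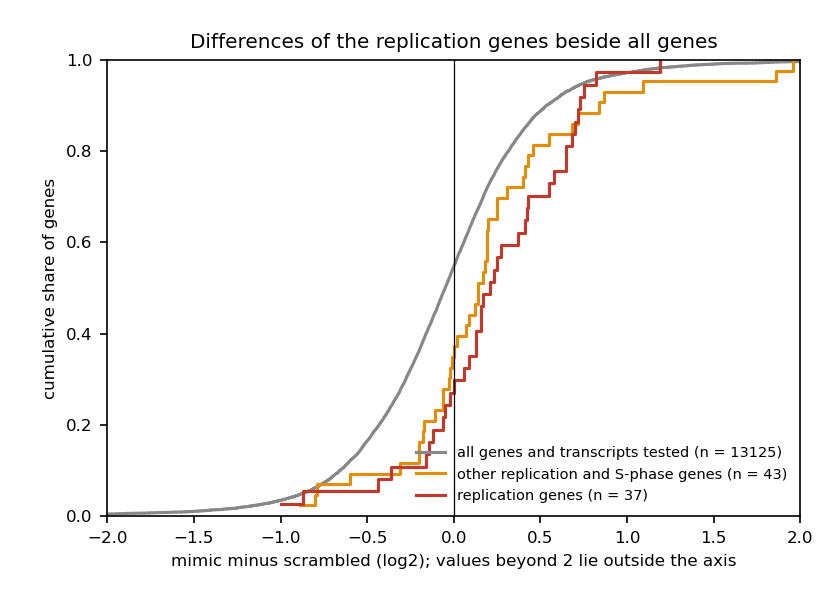
Cumulative share of genes (vertical axis) at or below each mimic minus scrambled difference (log2, horizontal axis) for the 37 replication genes (red), the 43 other replication and S-phase genes (orange) and all 13125 genes and transcripts tested (grey). The red curve lies right of the grey one over most of its length, with medians of 0.21 and -0.05, and meets it at both ends.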

How the data were processed

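Total RNA of C2C12 cells was measured on 1-colour (Cy3) Agilent arrays. Each deposited scanner file gives linear spot intensity, which the authors obtained with Agilent Feature Extraction (version 12.0.0.7 per the file headers, 10.7.3.1 per the submitters' processing notes); probe positions are on mm9, per the file headers, and no exon or UTR was assigned to them. The deposited value table of the same arrays holds intensity too. Against the scanner signal (Spearman 0.9987 to 0.9994) it was linear and not centred; the rule that left dim probes empty is unknown, and its column medians were 192.1, 275.5, 260, 214.7, 252.7 and 294.1 for mimic samples 1 to 6 and 245, 244.8, 202.9 and 214.9 for scrambled samples 1 to 4.

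Mimic samples 1 and 4, 2 and 5, and 3 and 6, and scrambled samples 1 and 3, and 2 and 4, shared an array position (21 to 75 non-uniform spots in common, 0 in any other pair) and were averaged. The log2 processed signal, without control spots and spots marked as outliers, was averaged per probe and set relative to the 75th percentile of each file over the 13029 probes that all 10 files detected above background. Probes above background in at least 4 files were kept (16786 of 55681), with the brightest probe per gene; 54 probes belonged to the 44 genes. Of 13175 genes and transcripts, 50 lacked a value on an array and 13125 were tested for mimic against scrambled sequence in limma (3.58.1, under R 4.3.3) by lmFit followed by eBayes, which had 3 residual degrees of freedom and a prior of 2.92, with Benjamini-Hochberg adjustment and a threshold of 0.05. The scripts were tested on simulated data. Replication genes past the threshold, and those with the largest and the smallest difference in each role, were given with array values, as were the other replication genes past the threshold and up to 6 more by size of difference. Array values of Mcm3, Pcna, Rrm2, Cdk2 and Ccne1 were added after their values were seen. Those of Mcm10, whose rounded difference equals that of Gins1, and in part those of Pole2 were given as well. The genes and lists were chosen with earlier results of these data known. RefSeq tables of GRCm38.p6 served for names and printed sequences.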

Additional observations from a re-analysis of the deposited data

How the results depend on the processing

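The 37 differences were recomputed under 18 alternatives, 662 comparisons in all: 564 kept their direction and side of the threshold, 37 passed it, 28 no longer passed it and 33 changed sign, none of these for a gene that passed. The counts of replication genes and of other replication and S-phase genes are given below as higher and lower. With the 10 files as separate arrays they were 13 and 4, and 10 and 3, with 34.6% of all genes called (5.12% as reported). With the replicate block, by the number in the labels, they were 7 and 1, and 2 and 3, with 14.9% of all genes called, and Gins1 (adjusted p = 0.027), Mcm10 (0.018), E2f1 (0.022) and E2f2 (0.036) passed; the numbers did not pair the samples (correlations of deviations 0.382, -0.0366, -0.351 and -0.106). With scan as a block and array position as a random block they were 8 and 1, and 3 and 3 (11.2% of all genes called). The first scan alone gave 1 replication gene higher (4.46% of all genes called) and the second 2 (4.05%); normexp gave 2, with 0 of the other list (4.14%). Without the filter on dim probes none was called in either list, and 17 of 34476 genes were called. Leaving out 1 array gave 0 to 14 replication genes higher and 0 to 3 lower, 0 to 9 and 0 to 3 of the other list, and a median of 0.14 to 0.27, with 0.358% to 33.1% of all genes called. The percentile over all probes gave a median of 0.37, moved the median of all genes from -0.05 to 0.11 and changed the lower calls from 45.8% of 672 to 31.8% of 730; it and quantile normalisation gave 2 other genes higher.

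Signs changed for small differences. Under the replicate block Pole2 was 0.22 and Rfc3 0.14; in the first scan they were 0.12 and 0.26, and in the second Tyms was -0.03. With an array left out, Pole2 ran from -0.33 to 0.28, Gins4 from -0.21 to 0.18, Tyms from -0.13 to 0.56, Orc6 from -0.07 to 0.25, Mcm2 from -0.27 to 0.04, Mcm4 from -0.11 to 0.37, Gins3 from -0.39 to 0.07, Pold2 from -0.44 to 0.16 and Rfc3 from -0.26 to 0.14. With the percentile over all probes Mcm2 was 0.04, Gins4 0.14, Pold2 0.02, Pole2 0.16, Rfc3 0.10 and Rpa1 0.11. Under quantile normalisation Gins4 was 0.02, Pole2 0.17 and Rfc3 0.12, under normexp Rpa1 0.00, Lig1 -0.03 and Tyms -0.02, and in the deposited table Gins4 0.01, Pole2 0.17 and Rfc3 0.13. The cause was not tested. The number of arrays limits the precision, and 7 of the 44 genes lay under the signal filter.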
